A study of Mus musculus with 3 samples.

Results

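A set of 44 cell cycle genes, chosen by symbol from 55536 annotated genes, was read in chromatin-fraction RNA of mouse macrophages. By role they fell into 19 regulators of G1, 10 genes of S phase and 15 genes of mitosis. The cells were primary macrophages of the C57BL/6J strain, labelled BMDM, which stands for macrophages grown from bone marrow, and they were given lipid A at 100 ng/ml for 90 minutes. Lipid A is the part of bacterial lipopolysaccharide that Toll-like receptor 4 detects. The series held 1 group of 3 biological replicates with the same donor label. Age and sex were not collected, no transgene or other treatment is labelled, and unstimulated cells were not analysed here, so each value is a level after lipid A and not a change caused by it. All p-values measure the spread between these 3 libraries, which may be partly technical.

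Total RNA of the chromatin fraction was sequenced after depletion of ribosomal RNA. The deposited gene tables summed to 11277198, 24965749 and 19794886 expected counts in replicates 1, 2 and 3, of which the 44 genes took 23450, 24323 and 25852. Starting RNA was 1 µg in replicate 1, 250 ng in replicate 2 and 500 ng in replicate 3, and an effect of this amount and a difference between replicates cannot be told apart. Of 10 macrophage markers 8 were called above the bound defined below, beside 21.3% of all genes tested. TPM is a relative abundance that accounts for transcript length. The scavenger receptor gene Msr1 measured 313, 154 and 204 TPM in replicates 1, 2 and 3. Adgre1, which encodes F4/80, measured 258, 169.7 and 235 TPM. Itgam (2.98, 3.09 and 3 TPM) and Fcgr1 (5.42, 1.27 and 3.1 TPM) were the markers not called. Their mean levels of -0.49 and -0.53 log2 units lay under the library median. Markers of other cells of bone marrow were low in the table made from an alignment. The 7 markers of granulocyte precursors and neutrophils summed to 0, 1.49 and 0.29 TPM, with Elane, Mpo, Ctsg and Ly6g at 0 in every library, and the 4 erythroid markers summed to 0, 0.05 and 0.2 TPM. The 5 markers of B cell precursors summed to 0.08, 0.04 and 0.04 TPM, and the 5 stromal markers to 0.25, 0.83 and 1.59. The 4 progenitor markers summed to 2.07, 0.46 and 0.6 TPM, nearly all of it Kit, with Cd34 at 0 in every library. In a second table, made without an alignment, some of these markers were higher. There Mpo measured 1.38, 0.283 and 0.358 TPM, Cd34 4.11, 0.442 and 0.785, and the B cell precursor marker Ebf1 4.76, 1.16 and 1.71. Elane and Ly6g stayed at 0 in every library.

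A cell leaves G1 when D-type cyclins bound to Cdk4 or Cdk6, followed by E-type cyclins bound to Cdk2, phosphorylate the retinoblastoma protein and its relatives, which frees activating E2F factors to switch on genes of DNA synthesis. Inhibitors such as p21, the product of Cdkn1a, block these kinases. Genes of mitosis rise later in the cycle, and both waves are held down in resting cells by E2F and DREAM repressor complexes. Macrophages grown from marrow divide in response to the growth factor CSF1, and lipopolysaccharide is known to stop that division.

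The chromatin fraction held abundant RNA of 3 of these genes and little of most others. Cdk6, the G1 kinase, Cdkn1a, the inhibitor of cyclin-dependent kinases, and Mki67, which encodes the Ki-67 protein that coats mitotic chromosomes, together took all but 21.9%, 19.8% and 21% of the 44 genes' expected counts in replicates 1, 2 and 3. Counts grow with transcript length, and on the TPM scale the other 41 genes took 32.5%, 21.7% and 24.1%. A gene was called above or below when its level, log2(TPM + 1) minus the median of the expressed protein-coding genes of the same library, lay beyond a bound of 1 log2 unit in limma's treat test with Benjamini-Hochberg adjustment over 13434 genes. That median was 5.5, 3.7 and 4.93 TPM, and a gene at 0 TPM lay at -2.70, -2.23 and -2.57 log2 units. Near this floor the pseudocount of 1 compresses differences between libraries. The SD and p-value of a low gene therefore do not measure its own spread in full. Of the 36 cell cycle genes that reached a mean of 10 expected counts, 3 were called above, 16 below and 17 neither. Over all genes tested 21.3% were called above and 21.3% below. The other 8 genes, at 1 to 18 expected counts a library and 0.02 to 0.99 TPM, were too low to test. In bulk RNA, fewer cells with a transcript and less of it per cell cannot be told apart.

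**Figure D1:**
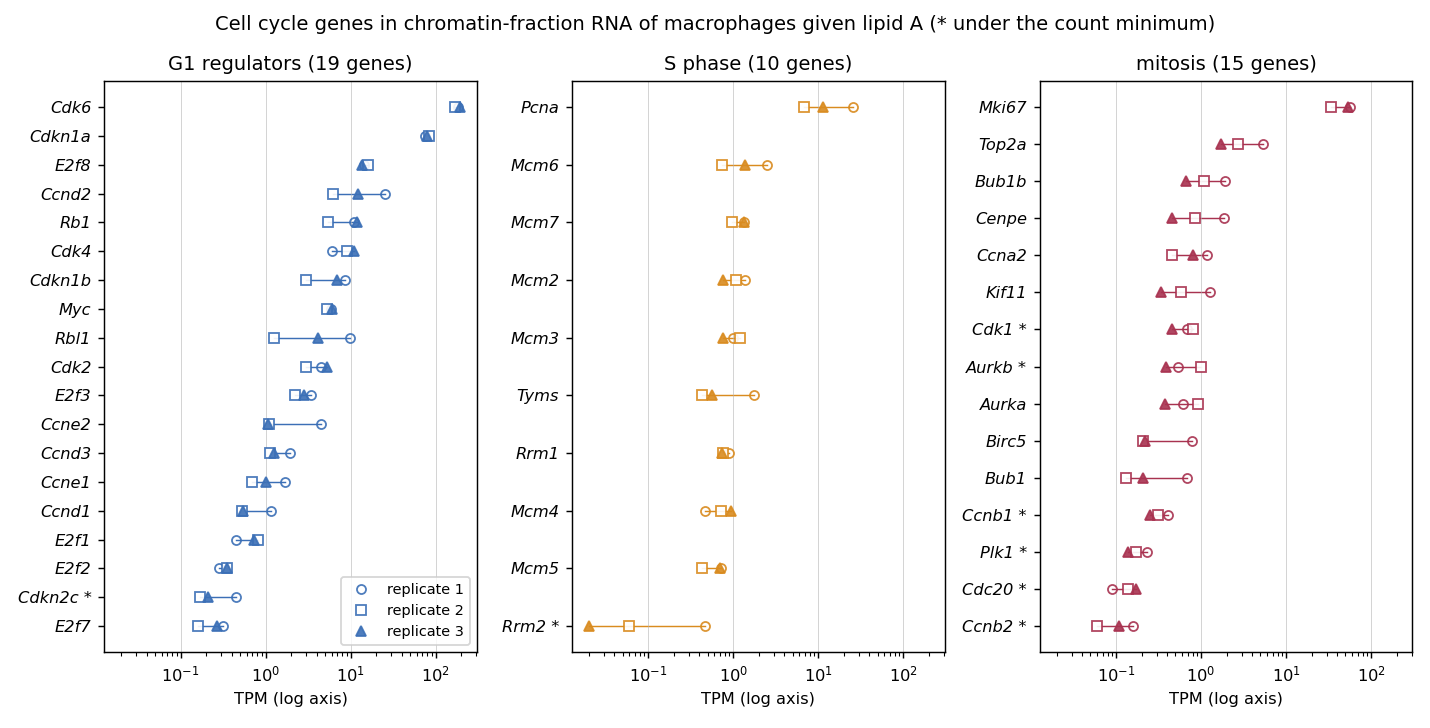
TPM (log axis) of the 44 genes in each of the 3 libraries, by class, ordered by mean; each symbol is 1 library, a line joins the lowest and the highest, and an asterisk marks genes under the count minimum. Cdk6, Cdkn1a and Mki67 lie above every other gene, and 17 genes lie below 1 TPM in all 3 libraries, 9 of them in the mitosis class.

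The 3 genes called above were higher than every other gene of the set in each library, but Mki67 was not always far above the next. In replicate 1 it measured 55.8 TPM, beside 25.7 for Ccnd2. In the table made without an alignment, Mki67 measured 70.6, 21.8 and 46.9 TPM, beside 67.8, 12.6 and 38.6 for Ccnd2. Of the TPM of Ccnd2 there, 30.5, 5.12 and 14.6 lay on Ccnd2-207, a transcript with no annotated coding sequence. It held 110.3, 62.5 and 88.7 estimated counts. Cdk6 (ENSMUSG00000040274.11, chromosome 5, 3341485 to 3531008 in mm10, plus strand) measured 185, 168 and 194 TPM, a level of 5.02 ± 0.17 log2 units (SD, n = 3; adjusted p = 8.82e-06, limma treat), higher than 98.3% of the genes tested by mean level. Cdkn1a (ENSMUSG00000023067.14, chromosome 17, 29090976 to 29100727, plus strand) measured 74.6, 82.6 and 79.8 TPM, a level of 3.82 ± 0.31 (adjusted p = 3.85e-05). Mki67 (ENSMUSG00000031004.8, chromosome 7, 135689784 to 135716361, minus strand) measured 55.8, 34.2 and 54.1 TPM, a level of 3.08 ± 0.16 (adjusted p = 8.19e-05), on 7637, 8830 and 11039 expected counts. All 3 calls held under each of the 11 alternative settings tried.

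Mki67 was far from the other genes of its class. The next highest, Top2a, which encodes the DNA topoisomerase that untangles sister chromatids, measured 5.38, 2.69 and 1.7 TPM. Mki67 exceeded it 10.4-, 12.7- and 31.8-fold on the TPM scale in replicates 1, 2 and 3. The 14 mitosis genes other than Mki67 together summed to 15.8, 9.36 and 6.29 TPM, less than Mki67 alone in each library. Both genes are widely used markers of dividing cells. The alignment-free quantification also placed Mki67, at 70.6, 21.8 and 46.9 TPM, above Top2a, at 10.9, 3.16 and 4.22 TPM, but there Cdk1 was next to Mki67 in replicates 1 and 3 (16.9 and 5.53 TPM).

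The 250 bases upstream of the RefSeq start site of the 3 genes called above, and of Top2a for comparison with Mki67, were taken from RefSeq's promoters on GRCm38.p6, the build of mm10. They lie at chr7:135716380-135716629 for Mki67 (minus strand), chr11:99024190-99024439 for Top2a (minus strand), chr5:3343643-3343892 for Cdk6 (plus strand) and chr17:29090729-29090978 for the upstream start of Cdkn1a (plus strand). Capitals mark the letters searched, on both strands.
Mki67: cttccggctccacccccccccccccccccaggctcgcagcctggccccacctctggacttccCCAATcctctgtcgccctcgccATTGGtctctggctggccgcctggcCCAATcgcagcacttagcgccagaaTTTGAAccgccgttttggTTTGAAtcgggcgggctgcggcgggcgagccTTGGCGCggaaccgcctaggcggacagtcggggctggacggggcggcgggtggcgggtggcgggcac
Top2a: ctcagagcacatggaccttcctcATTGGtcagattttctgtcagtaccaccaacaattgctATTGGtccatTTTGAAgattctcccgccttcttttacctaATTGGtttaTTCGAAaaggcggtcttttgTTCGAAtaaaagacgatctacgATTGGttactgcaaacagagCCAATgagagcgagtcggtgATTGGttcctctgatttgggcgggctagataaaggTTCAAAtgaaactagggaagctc
Cdk6: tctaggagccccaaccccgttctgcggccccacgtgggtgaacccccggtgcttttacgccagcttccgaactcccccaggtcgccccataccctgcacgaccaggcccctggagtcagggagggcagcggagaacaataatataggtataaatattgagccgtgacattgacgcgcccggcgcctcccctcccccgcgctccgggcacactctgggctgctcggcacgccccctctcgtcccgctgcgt
Cdkn1a: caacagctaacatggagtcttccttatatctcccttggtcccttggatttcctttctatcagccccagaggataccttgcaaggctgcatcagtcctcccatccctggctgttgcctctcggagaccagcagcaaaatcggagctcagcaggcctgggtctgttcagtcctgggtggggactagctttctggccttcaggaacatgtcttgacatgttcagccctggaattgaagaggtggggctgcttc
The letters searched were the E2F core in its form TTGGCGC or in the related forms TTCCCGC and also TTCGCGC and finally TTGCCGC, the cell cycle homology region element CHR as TTTGAA or in its form TTCGAA, and the CCAAT box, and these may overlap. Mki67 held 1 E2F core, 2 CHR elements and 3 CCAAT boxes, and Top2a held no E2F core, 4 CHR elements and 6 CCAAT boxes. The windows of Cdk6 and Cdkn1a held none of the 3. In Cdkn1a few reads were assigned to isoforms of that upstream start. Cdkn1a-202 had 0 expected counts in each library, and Cdkn1a-204 had 21, 17 and 14 in replicates 1, 2 and 3. Most reads of the gene were assigned to isoforms that start downstream of it. RefSeq promoters were matched for 36 of the 44 genes. A CHR element lay in 7 of 13 mitosis genes, 2 of 9 S phase genes and 3 of 14 G1 regulators, against 19.6% of 27025 genes. An E2F core lay in 3 of 13 mitosis genes, 5 of 9 S phase genes and 6 of 14 G1 regulators, against 9.01%. The CCAAT box lay in 12 of 13 mitosis genes, 8 of 9 S phase genes and 7 of 14 G1 regulators, against 37.5%. A match is a description of the letters and not a bound site.

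G1 regulators held both the highest genes and a wide range below them. Of 18 tested, 2 were called above, 5 below and 11 neither, and the class median was -0.34 ± 0.19 log2 units (SD, n = 3), beside -0.21 ± 0.10 for all genes tested.

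Among the G1 kinases, Cdk6 stood apart from its partner in function Cdk4. Cdk4, which binds the same D-type cyclins, measured 6.06, 9.01 and 11.1 TPM, so Cdk6 was 30.5-, 18.6- and 17.4-fold higher on the TPM scale. Cdk2, the kinase of E-type cyclins, measured 4.47, 2.99 and 5.29 TPM. Cdk4 and Cdk2 lay within the bound (0.75 ± 0.54 and -0.13 ± 0.19 log2 units), and neither was called.

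Of the 3 D-type cyclins, which activate Cdk4 and Cdk6, Ccnd2 was the highest in every library. It measured 25.7, 6.16 and 12.2 TPM, and its lowest library exceeded the highest library of Ccnd3 and of Ccnd1. Ccnd3 measured 1.95, 1.13 and 1.27 TPM and Ccnd1 1.16, 0.53 and 0.54. Ccnd2 exceeded Ccnd1 22.2-, 11.6- and 22.5-fold on the TPM scale, and its SD of 0.72 log2 units was among the widest of the class. Ccnd2 was not called (1.27 ± 0.72, adjusted p = 0.352, limma treat), though the alignment-free TPM placed it at 2.00 log2 units (adjusted p = 0.00367). Ccnd1 was called below (-1.72 ± 0.20, adjusted p = 0.00722), a call that was lost without replicate 3 (-1.61, adjusted p = 0.105).

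The E-type cyclins were low. Ccne1 measured 1.7, 0.7 and 1.02 TPM and was called below (-1.43 ± 0.15, adjusted p = 0.0426, limma treat), while Ccne2, at 4.48, 1.11 and 1.07 TPM, was not. The call of Ccne1 was lost under 7 of 10 alternatives, among them without replicate 2 (-1.42, adjusted p = 0.161) and without replicate 3 (-1.38, adjusted p = 0.28). Ccne2 was far higher in replicate 1 than in the others. The 3 libraries of Ccne1 and of Ccne2 overlapped.

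Of the 3 inhibitors of cyclin-dependent kinases, Cdkn1a was the highest in each library. Cdkn1b, which encodes p27, the inhibitor usual in resting cells, measured 8.7, 2.97 and 6.92 TPM. Cdkn1a exceeded it 8.58-, 27.8- and 11.5-fold on the TPM scale. Cdkn2c, which encodes p18, an inhibitor of Cdk4 and Cdk6, measured 0.45, 0.17 and 0.21 TPM on 8 to 10 expected counts and was not tested. The 3 libraries of each inhibitor did not overlap with those of the next.

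The retinoblastoma family members lay near the typical expressed gene. Rb1 measured 10.95, 5.49 and 11.9 TPM and its relative Rbl1 9.93, 1.25 and 4.13, with neither called. Rb1 was the higher in each library of the alignment-based table, but in the alignment-free table Rbl1 was higher in replicate 1 (29.1 TPM, beside 13.9 for Rb1). Rbl1 had the largest SD among the 36 genes in log2 TMM-normalised CPM (0.98), where CPM scales counts to library size.

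The E2F factors split in level. E2f1, E2f2 and E2f3 are usually classed as activators, and E2f7 and E2f8 as repressors that act on genes of S phase. E2f8 measured 14.4, 15.8 and 13.8 TPM and was the highest of the 5 in every library of the alignment-based table, 4.26-, 7.2- and 4.92-fold above E2f3. In the alignment-free table E2f3, at 20.8, 5.05 and 9.01 TPM, was above E2f8, at 18, 12.9 and 14.4, in replicate 1. E2f3 measured 3.39, 2.2 and 2.8 TPM, E2f1 0.45, 0.81 and 0.73, and E2f2 0.28, 0.35 and 0.35. E2f7 was the lowest in the alignment-based table in replicates 2 and 3, at 0.32, 0.16 and 0.27 TPM. E2f1, E2f2 and E2f7 were called below (-1.77 ± 0.39, -2.09 ± 0.27 and -2.18 ± 0.15 log2 units; adjusted p = 0.0111, 0.00172 and 0.000952, limma treat). E2f8 missed the call narrowly (1.47 ± 0.32, adjusted p = 0.0509), and it was called above by edgeR (adjusted p = 0.0154), by DESeq2 (0.0233) and without replicate 1 (0.00118). It was not called with the alignment-free TPM, with posterior mean TPM, without replicate 2 or without replicate 3. The call of E2f1 was lost without replicate 3 (-1.78, adjusted p = 0.0627).

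Myc, the transcription factor gene that drives cell growth, was close to the typical expressed gene, at 5.88, 5.32 and 6.08 TPM. Its level was 0.25 ± 0.17 log2 units, with like TPM in all 3 libraries, and it was not called. With no minimum on counts 6 G1 regulators were above and none below, and with a minimum of 100, 2 were below. Those 2 were other genes than the ones called below in the main test, none of which reached that minimum. Counts of G1 regulators below the bound were 5, 4 and 2 without replicates 1, 2 and 3.

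S phase genes were low with 1 exception. Of 9 tested, none was called above in limma's treat test (0 also at an unadjusted p under 0.05, in edgeR and in DESeq2), 6 were called below and 3 neither. The class median was -1.59 ± 0.16 log2 units. Pcna, which encodes the sliding clamp of DNA polymerase, measured 25.7, 6.84 and 11.2 TPM (1.27 ± 0.68 log2 units, not called) and exceeded the next gene, Mcm6, 10.4-, 9.24- and 8.14-fold on the TPM scale. The 3 libraries of Pcna did not overlap with those of any other S phase gene in the alignment-based table. In the alignment-free table Pcna, at 42.7, 6.18 and 14 TPM, was the highest in each library. There the next gene was Rrm1, at 15, 3.29 and 5.59 TPM, and the libraries of the 2 genes overlapped. Pcna was also a gene whose reads are uncertain, since 11.5% to 54.6% of the 31-base words of its 5 isoforms occur in transcripts of other genes.

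The 6 subunits of the MCM helicase, which unwinds DNA at replication origins, lay together near 1 TPM. Mcm6 measured 2.47, 0.74 and 1.38 TPM, Mcm7 1.32, 0.97 and 1.33, and Mcm2 1.38, 1.09 and 0.76. Mcm3 measured 0.98, 1.2 and 0.76 TPM, Mcm4 0.46, 0.72 and 0.94, and Mcm5 0.71, 0.43 and 0.7. No subunit was apart from the others in all 3 libraries. Mcm2 to Mcm5 were called below, at -1.46 ± 0.29, -1.52 ± 0.37, -1.74 ± 0.37 and -1.82 ± 0.11 log2 units in that order, with adjusted p from 0.00345 for Mcm5 to 0.04999 for Mcm2 (limma treat). Mcm6 and Mcm7 were not called (-1.22 ± 0.28 and -1.36 ± 0.12), and the reads of Mcm7 are uncertain, with 24.4% to 65.2% of the 31-base words of its isoforms in other genes.

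Genes of nucleotide supply were equally low. Tyms, the enzyme that makes thymidylate, measured 1.74, 0.43 and 0.56 TPM, and Rrm1, the large subunit of ribonucleotide reductase, 0.9, 0.75 and 0.74. Both were called below (-1.63 ± 0.35 and -1.66 ± 0.20, adjusted p = 0.0203 and 0.0104, limma treat). Rrm2, the small subunit, which cells make mainly in S phase, was the lowest of the class at 0.47, 0.06 and 0.02 TPM on 5, 1 and 1 expected counts and was not tested. These calls rest on few reads: the 16 genes called below had 7 to 77 expected counts a library. Most of the 16 had a smaller SD in level than in log2 TMM-normalised CPM, such as E2f7 (0.15 and 0.54) and Birc5 (0.22 and 0.62). Ccnd1, Mcm4 and Aurka did not. The small SDs and p-values of the calls below can thus overstate how alike the libraries were.

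The S phase calls depended on the settings and the libraries. With no minimum on counts 1 gene was above and none below, against the median of all genes 1 was below, and with posterior mean TPM 2. With a minimum of 100 none was below, but that minimum removed every S phase gene called below, so it could not test those calls. Without replicates 1, 2 and 3 there were 7, 4 and 1 genes below. Without replicate 2 the calls of Mcm2 (-1.61, adjusted p = 0.0623) and Tyms (-1.60, 0.0828) were lost. Without replicate 3 those of Mcm2 (-1.32, 0.349), Mcm3 (-1.41, 0.258), Mcm4 (-1.81, 0.0526), Rrm1 (-1.61, 0.111) and Tyms (-1.49, 0.186) were lost, and Mcm5 alone stayed below. Mcm6 was called without replicate 1 (-1.36, 0.0442). The direction of each was the same in every case.

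Genes of mitosis, Mki67 apart, were the lowest class. Of 9 tested, 1 was called above, 5 below and 3 neither, 6 more fell under the count minimum, and the class median was -1.88 ± 0.27 log2 units. The tested genes, those with more reads, do not stand for the whole class.

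Cyclins of S phase, G2 and mitosis and their kinase were low. Ccna2, the cyclin of S phase and G2, measured 1.18, 0.45 and 0.81 TPM and was called below (-1.66 ± 0.07, adjusted p = 0.00765, limma treat). Ccnb1 and Ccnb2, the B-type cyclins, ran from 0.25 to 0.41 and from 0.06 to 0.16 TPM, and Ccnb2 was the lowest of all 44 genes by mean TPM, at 0.16, 0.06 and 0.11 TPM on 2 to 3 expected counts. Cdk1, their kinase, ran from 0.45 to 0.8 TPM. These last 3 were not tested.

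Mitotic kinases and the spindle checkpoint were similar. Aurka, a kinase of the spindle poles, measured 0.61, 0.91 and 0.38 TPM and Bub1, a checkpoint kinase, 0.68, 0.13 and 0.21, and both were called below (-1.81 ± 0.44 and -2.10 ± 0.17, adjusted p = 0.0114 and 0.00126, limma treat). The checkpoint gene Bub1b was the third highest of the class at 1.91, 1.08 and 0.67 TPM and was not called. Aurkb, the kinase of the chromosomal passenger complex, and Plk1, a kinase of mitotic entry, reached at most 0.99 and 0.23 TPM. Cdc20, the activator of the anaphase-promoting complex, measured 0.09, 0.14 and 0.17 TPM. None of Aurkb, Plk1 and Cdc20 had enough counts to test.

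The motors and the survivin gene completed the class. Kif11, a kinesin that separates the spindle poles, measured 1.26, 0.58 and 0.34 TPM and was called below (-1.75 ± 0.35, adjusted p = 0.0104, limma treat). Birc5, which encodes survivin, measured 0.78, 0.21 and 0.22 TPM and was called below (-2.04 ± 0.22, adjusted p = 0.00175). Cenpe, a kinesin of the kinetochore, measured 1.88, 0.84 and 0.45 TPM and was not called (-1.52 ± 0.45, adjusted p = 0.0556). Replicate 1 was the highest for all 3 genes on the TPM scale.

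With no minimum on counts and with a minimum of 100, 1 mitosis gene was below. Under the minimum of 100 it was another gene than those called below in the main test, none of which reached that minimum. Without replicates 1, 2 and 3, the mitosis genes below numbered 9, 5 and 2. Without replicate 3 the calls of Ccna2 (-1.65, adjusted p = 0.0919), Aurka (-1.67, 0.0978) and Kif11 (-1.56, 0.134) were lost, and without replicate 1 Bub1b (-1.49, 0.00702) and Cenpe (-1.68, 0.000194) were called below. The sum of the 14 mitosis genes other than Mki67 and that of the progenitor markers were both highest in replicate 1 (15.8 and 2.07 TPM). So were 28 of the 44 genes on the TPM scale. Relative to the library median the mitosis class was highest in replicate 2 (-1.95, -1.57 and -2.10 log2 units in replicates 1, 2 and 3). The level of a gene at 0 TPM was also highest there (-2.70, -2.23 and -2.57), so this order near the floor does not compare the genes' RNA. The median TPM of the class was 0.68, 0.58 and 0.38. The part of progenitor cells in the result was not tested.

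The order of the 3 classes was the same in each library. The G1 median lay above the S phase median by 1.35, 0.87 and 1.54 log2 units in replicates 1, 2 and 3 (1.26 ± 0.34, SD, n = 3) and above the mitosis median by 1.71, 1.02 and 1.89 (1.54 ± 0.46). The S phase median lay above the mitosis median by 0.35, 0.14 and 0.35 (0.28 ± 0.12), a smaller step. These medians were over all members of each class, given as a description with no test. They are compressed by the pseudocount of 1, and with 0.1 the 3 differences were 1.88, 2.48 and 0.61.

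**Figure D2:**
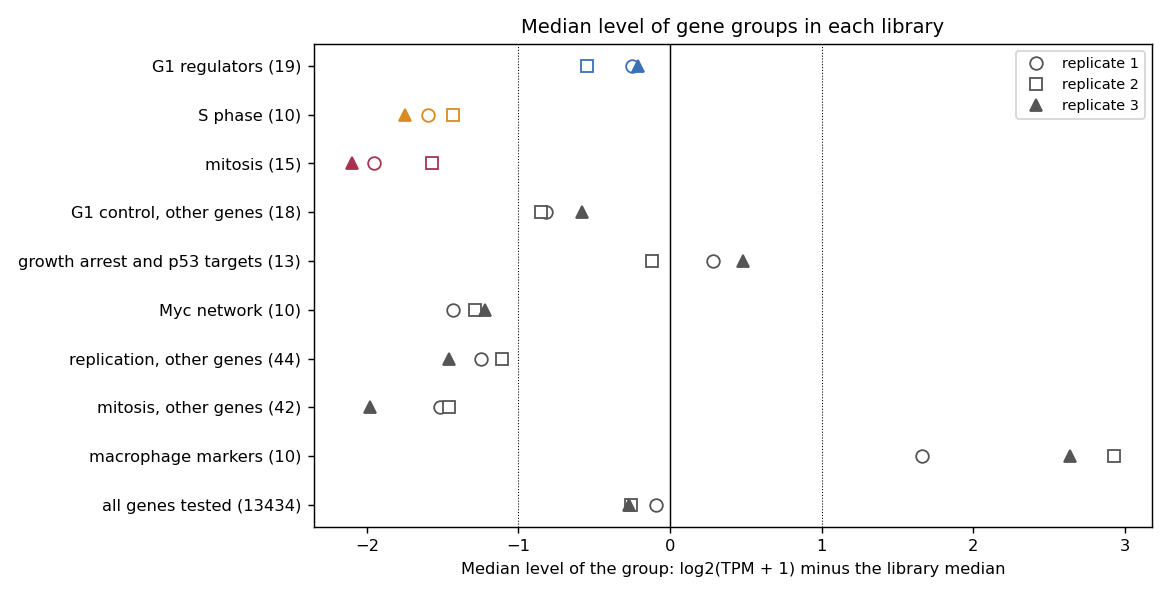
Median level (log2(TPM + 1) minus the library median, x axis) of the 3 classes, of related gene lists, of macrophage markers and of all genes tested; each symbol is 1 library, the number of genes is in brackets, and dotted lines mark the bound of 1 log2 unit. The S phase and mitosis medians and those of the other replication and mitosis genes lie below -1 in all 3 libraries, as does that of the Myc network, and the G1 median lies between -0.55 and -0.21.

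Wider lists of the same pathways held few genes above the bound. Of 34 other mitosis genes tested, 1 was called above and 19 below (median over all 42 members -1.66 ± 0.28 log2 units), and of 34 other replication genes, 1 above and 10 below (median over 44 members -1.27 ± 0.18). The shares called below were 55.9% and 29.4%, and above 2.94% in both lists. Over all genes tested 21.3% were called in each direction, so the replication list was nearer to that share below than the mitosis list. The gene above was Smc4, a condensin subunit, at 33.7, 12.9 and 23 TPM in the first list, and Orc4, an origin recognition subunit, at 43.9, 12.8 and 24 TPM in the second. Next highest were the securin gene Pttg1 (15.8, 4.22 and 9.42 TPM) and the checkpoint gene Mad2l1 (9.3, 8.11 and 8.2), and for replication Orc3 (21.6, 8.1 and 11.7) and the thymidine kinase gene Tk1 (16.4, 8.82 and 9.32). The lowest tested were the kinesin genes Kif20a (0.14, 0.41 and 0.32 TPM) and Kif2c (0.31, 0.51 and 0.12), and for replication the helicase cofactor Cdc45 (0.36, 0.25 and 0.3) and the primase gene Prim1 (0.62, 0.26 and 0.25). Without replicate 3 there were 11 mitosis genes and 1 replication gene below. These ranks are those of the alignment-based table. In the alignment-free table the kinesin gene Kif23 measured 166, 15.9 and 32.9 TPM, against 2.19, 1.56 and 1.16. The replication gene Timeless measured 46.8, 9.43 and 19.1 TPM there, against 0.62, 0.62 and 0.98. Both were called higher in the alignment-free table (adjusted p = 0.0135 and 0.00689, limma treat).

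Of other genes of G1 control, growth arrest and the Myc network, 6.67%, 30.8% and 37.5% of those tested were called above. The shares called below were 33.3%, 7.69% and 25%, and over all genes tested 21.3% were called in each direction. Medians over all members of the 3 lists were -0.75 ± 0.15, 0.21 ± 0.30 and -1.31 ± 0.11 log2 units (SD, n = 3). Of 15 other G1 genes tested, 1 was called above and 5 below. The gene above, E2f4, a subunit of repressor E2F complexes in resting cells, measured 14.4, 11.8 and 17.5 TPM, and its call was lost without replicate 2 and without replicate 3. Fzr1, an activator of the anaphase-promoting complex in G1, measured 14.3, 13.9 and 14.35 TPM and Lin9, a subunit of DREAM, 11.9, 6.26 and 6.64. The lowest tested were the inhibitor genes Cdkn1c (0.04, 0.46 and 0.71 TPM) and Cdkn2b (0.6, 0.26 and 0.53). With no minimum on counts, 3 of these G1 genes were above and 1 below.

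Of 13 genes of growth arrest and targets of p53 tested, 4 were called above and 1 below. Mdm2, the p53 ubiquitin ligase and, like Cdkn1a, a p53 target, measured 276, 208 and 264 TPM, Gadd45b, a stress gene that NF-kB also induces, 144, 134 and 178, and the atypical cyclin gene Ccng2 30.9, 11.2 and 15.9. The lowest were Tob1, an antiproliferative gene (1.24, 0.61 and 1.61 TPM), and Sesn2, a stress-induced gene that was called below (0.15, 0.39 and 0.35). Without replicate 3, 2 of the 13 were above. Of 8 genes of the Myc network tested, 3 were above and 2 below. The 3 were Max, the partner of Myc (95.3, 19.7 and 30 TPM), Mxd1, an antagonist that binds Max (55.6, 11.2 and 18.5), and Mga, a repressor that binds Max (36.9, 15.3 and 24.9). Mxd4 and Mnt, also antagonists, were the lowest (0.71, 0.34 and 1.04 TPM and 1.2, 0.74 and 0.95). All 3 genes above were higher than Myc in each library on the TPM scale.

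The isoforms of the 3 abundant genes ranked differently by reads and by TPM, which divides reads by length. Mki67-201, the full-length transcript, held 7634, 8819 and 11030 of the gene's 7637, 8830 and 11039 expected counts and 55.2, 32.9 and 53 of its 55.8, 34.2 and 54.1 TPM, and 1.26% of its 31-base words occur in other genes. In Cdk6 most reads were assigned to the full-length Cdk6-202, with a last exon of 10364 bases: 6992, 4588 and 4226 of 9259, 7996 and 7274 expected counts. On the TPM scale Cdk6-202 measured 44, 14.9 and 17.6. By TPM the highest was the short isoform Cdk6-203, with 1 exon at the 5′ end of the gene (3343916 to 3344599) and a 13-base second exon, at 67.7, 85.1 and 102 TPM on 462, 1018 and 985 expected counts. A retained intron isoform in the middle of the gene, Cdk6-206 (3470949 to 3473180), measured 46.6, 9.76 and 12 TPM. Of the 31-base words of Cdk6-203, 24.4% occur in other genes, of Cdk6-206 13.2% and of Cdk6-202 3.44%. In Cdkn1a nearly all reads were assigned to 3 coding isoforms. Cdkn1a-201, which starts at 29093769, held 807, 1185 and 1148 expected counts (33.8, 26.2 and 32.4 TPM), and Cdkn1a-203 (29097900 to 29099577) 447, 1295 and 870 (33.1, 51.9 and 44.1 TPM), with 3.35% and 9.02% of their words in other genes. Cdkn1a-201 had the more reads in replicates 1 and 3, and Cdkn1a-203 in replicate 2.

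**Figure D3:**
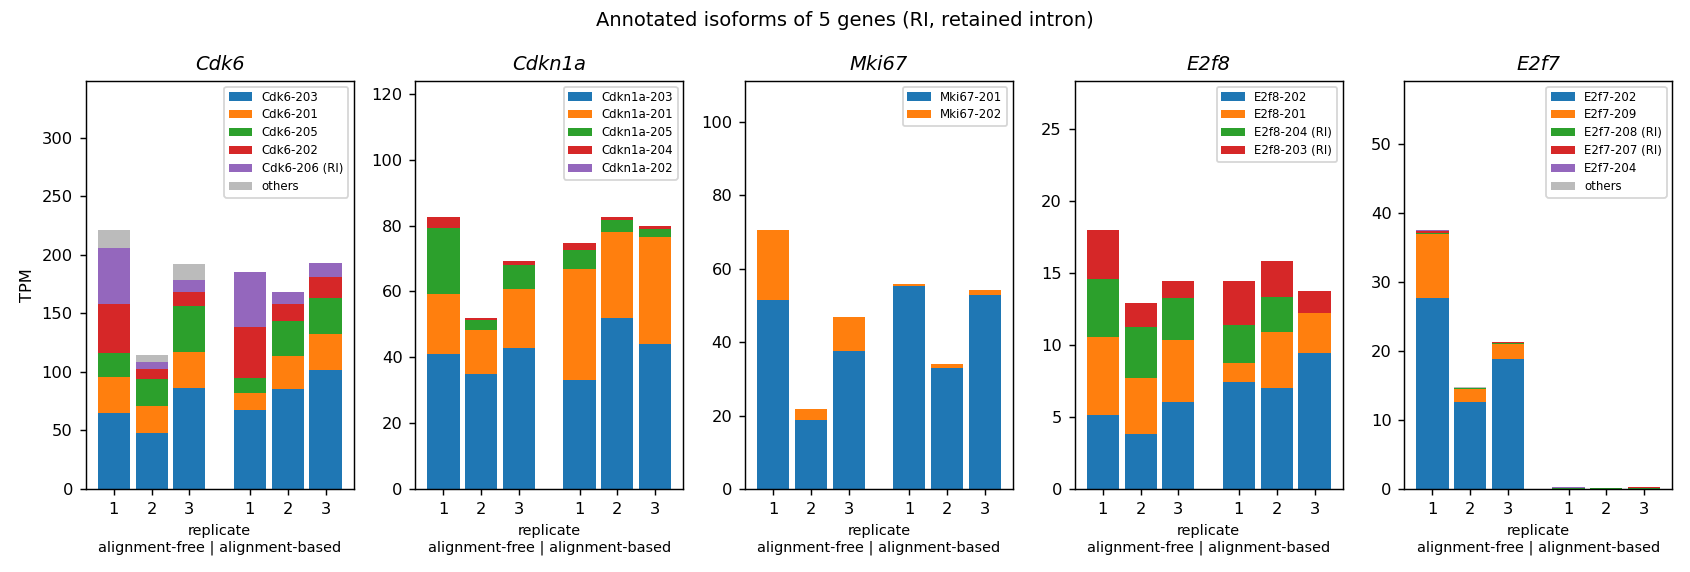
TPM of the annotated isoforms of Cdk6, Cdkn1a, Mki67, E2f8 and E2f7 as stacked bars for replicates 1, 2 and 3, with the alignment-free table at the left and the alignment-based table at the right of each panel. Mki67-201 makes up most of Mki67 in both tables, and E2f7 reaches 37.5 TPM in the alignment-free table but stays at or below 0.32 TPM in the alignment-based one.

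Reads of genes that overlap on the opposite strand cannot be told apart here, since the strand setting of the counting is not given in the sources used here. AC167363.2, an unclassified transcript that lies opposite Cdkn1a (29093416 to 29094461) and shares 273 exonic bases with it, held 604, 2907 and 1537 expected counts, beside 1425, 2676 and 2122 for Cdkn1a. Replicate 2 was the highest for both genes. Opposite Cdk6 lie Gm17590, sharing 368 exonic bases (1060, 909 and 662 counts beside 9259, 7996 and 7274 for Cdk6), and Gm42435, sharing none (1160, 410 and 429). Gm45240, opposite Mki67, shared no exonic base and held 42, 38 and 29 counts. For E2f8 the opposite gene Gm2788 shared 610 bases but held 6.16, 25.7 and 4.06 counts beside 494, 1123 and 912. Among the low genes, Ccnd1 shares 1100 bases with LTO1 (219, 229 and 267 counts, beside 36.9, 40.6 and 33.8 for Ccnd1). Other low genes also overlap an opposite gene with more reads. Ccne2 shares 609 bases with Ints8 (1142, 1281 and 1348 counts, beside 175.6, 67.5 and 62.8 for Ccne2). Ccna2 shares 510 bases with Exosc9 (152, 184.6 and 210.2 counts, beside 37, 25.4 and 28.8 for Ccna2).

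Isoforms that retain an intron were common, as in other genes of the fraction. Among 22 genes whose mean TPM reached 1, 15 have an annotated retained intron isoform, and their median share of the gene's TPM in such isoforms was 53.9%, 42% and 45.4% in replicates 1, 2 and 3 (47.1% ± 6.16, SD, n = 3). Over 5750 protein-coding genes it was 52.6%, 42.7% and 41.7%. Rbl1 had a share of 87.8% ± 3.16, Pcna 57.4% ± 3.24, Ccnd2 54.7% ± 8.92 and Cdk6 12.4% ± 11.1. Ccnd2-208, a retained intron isoform, measured 16.4, 2.84 and 6.54 TPM, more than the 7.45, 1.63 and 3.91 TPM of the coding Ccnd2-201 in each library. In the alignment-free table the retained intron share of Ccnd2 was 17.7% ± 6.71, and Ccnd2-208 was below Ccnd2-201 in replicate 2 (1.78 and 2.42 TPM).

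E2f7 was the 1 gene of the 36 whose 2 quantifications were called different. It measured 37.5, 14.7 and 21.3 TPM in the alignment-free table and 0.32, 0.16 and 0.27 TPM in the alignment-based table, a difference of 3.70 ± 0.16 log2 units (alignment-free minus alignment-based, SD, n = 3; adjusted p = 7.64e-05, limma treat over 13427 genes). Over all genes, 1.9% were called higher in the alignment-free table and 0.633% lower, and none of the 36 was called lower (0 also at an unadjusted p under 0.05; no other tool was run on this difference). The excess lay on E2f7-202, a transcript with no annotated coding sequence (27.7, 12.6 and 18.8 TPM), and on E2f7-209 (9.19, 1.94 and 2.22 TPM). Both were at or below 0.02 TPM in the alignment-based table. Outside the exons of E2f7-201, they share bases 110755535 to 110756247 on chromosome 10, which lie in an intron of the full-length E2f7-201, and 10.2% of the 31-base words of E2f7-202 occur in other genes. With the alignment-free values E2f7 lay above the bound (1.52 log2 units, adjusted p = 0.0256) rather than below it and exceeded E2f8, at 18, 12.9 and 14.4 TPM, in each library, so the order of these 2 repressor genes differed between the tables.

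**Figure D4:**
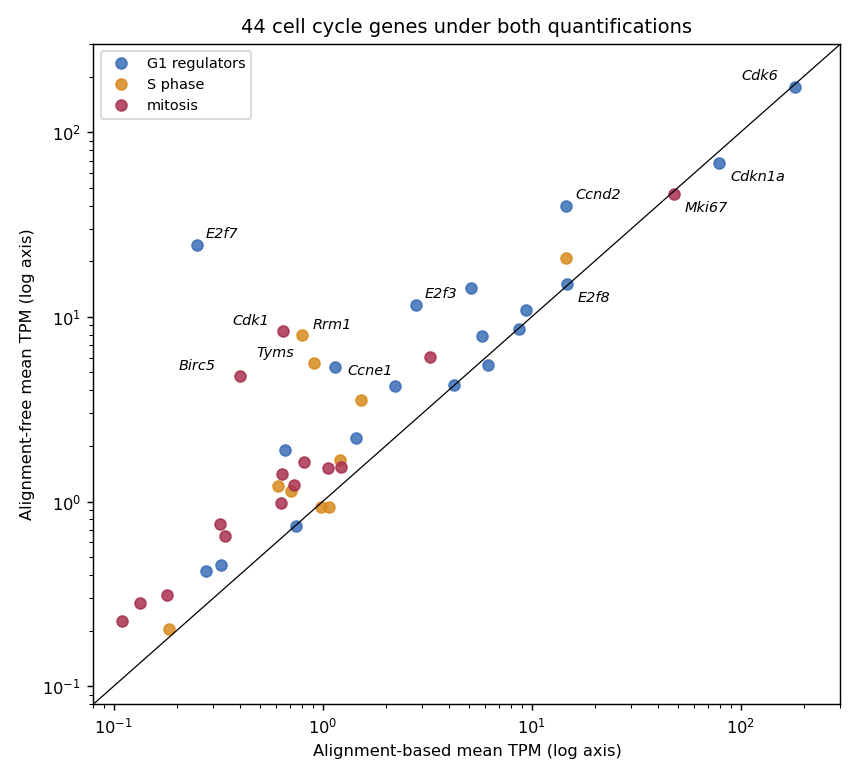
Mean TPM over the 3 libraries of each of the 44 genes in the alignment-free table (y, log axis) and in the alignment-based table (x, log axis), coloured by class, with the line of equal values. Cdk6, Cdkn1a and Mki67 lie near the line, and E2f7 lies farthest above it.

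Several low genes were also higher in the alignment-free table without a call. Cdk1, not tested, measured 16.9, 2.86 and 5.53 TPM there and 0.68, 0.8 and 0.45 TPM in the alignment-based table, and Cdk1-207 alone held 15.6, 2.5 and 4.88 TPM of the first. Rrm1 measured 15, 3.29 and 5.59 TPM against 0.9, 0.75 and 0.74, and Birc5 10.5, 1.44 and 2.47 TPM against 0.78, 0.21 and 0.22. Tyms measured 11.1, 2.28 and 3.57 TPM against 1.74, 0.43 and 0.56. The differences of Rrm1 (1.54 ± 0.49 log2 units, adjusted p = 0.358, limma treat), Birc5 (1.18 ± 0.45) and Tyms (1.08 ± 0.07) exceeded 1 log2 unit on average. With alignment-free levels, Rrm1 (-0.11 log2 units), Birc5 (-0.85), Tyms (-0.55), Ccne1 (-0.61) and E2f1 (-1.52, adjusted p = 0.0514) were no longer called below. Ccnd3 (-1.57, adjusted p = 0.0349), Mcm7 (-1.66, 0.0127), Bub1b (-1.79, 0.00362) and Cenpe (-1.90, 0.00493) were called below there, so that 14 genes were below rather than 16. Cdk6, Cdkn1a and Mki67 were called above by both quantifications.

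The libraries differed in these genes about as much as in others. Over the 36 genes the SD of log2 TMM-normalised CPM had a median of 0.432, and over all genes tested of 0.398. On the TPM scale 28 of the 44 genes were highest in replicate 1, and relative to the library median 18 were highest in replicate 1, 23 in replicate 2 and 3 in replicate 3. The level of a gene at 0 TPM was itself highest in replicate 2 (-2.70, -2.23 and -2.57 log2 units). The count for replicate 2 therefore does not compare the RNA of genes near that floor. Protein-coding genes took 68.4%, 40.2% and 50.3% of the expected counts of replicates 1, 2 and 3, with TMM factors of 1.439, 0.726 and 0.956; the part of this difference in the TPM values was not tested. Mki67, with an SD of 0.16, and E2f3, with 0.07, were among the steadiest, and Rbl1 (0.98), Mcm3 (0.95) and Ccne2 (0.93) the least steady.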

How the data were processed

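Gene and transcript tables of 3 libraries were used. The deposited expected counts and TPM were made by the authors from an alignment to the transcriptome with mm10 and the GENCODE M21 annotation, per the deposited description files; a second deposited transcript table of estimated counts and TPM was made without an alignment and is called alignment-free here. The aligner, counting tools, versions, strand settings and filters were not given in the sources used here. The members, lists and tests were chosen with earlier results of these data known.

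The alignment-free transcripts were summed to genes. The minimum for a test was a mean of 10 expected counts, which 13434 genes passed. Levels and paired differences of the 2 quantifications were tested with limma's treat (limma 3.58.1, R 4.3.3, intercept only, bound 1 log2 unit, pseudocount 1, Benjamini-Hochberg at 0.05). The spread used edgeR 4.0.16 TMM factors on expected counts rounded to whole numbers, with a prior count of 2. DESeq2 1.42.0, edgeR, other pseudocounts, count minimums, references and leaving out each library were alternatives, and the level tests were tested on simulated data. Named were all 44 genes, with values in each library for those called and for the 3 highest and 2 lowest of each class, and of other lists the 3 highest and 2 lowest tested. Kif23 and Timeless were named besides, for their difference between the 2 quantifications. Motifs and 31-base words were counted by exact match, and counting intervals were not used.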

Additional observations from a re-analysis of the deposited data

How the results depend on the processing

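The 3 calls above the bound held under all 11 alternatives, while each of the 16 calls below was lost under at least 1 of 10. With no minimum on counts, 8 members were above and 1 below (6, 1 and 1 of the G1, S phase and mitosis genes above, 0, 0 and 1 below; 4928 and 5539 of all genes), and with a minimum of 100, 3 were below (2, 0 and 1; 1317 of all genes above and 785 below). These settings lower and raise the reference median. The 16 genes called below, E2f7 among them, had at most 77 expected counts a library, so the minimum of 100 left all of them untested. Against the median of all genes, 9 were below (3 G1 and 1 S phase). The alignment-free TPM gave 5 above (4 of them G1) and 3 G1 genes below, turned E2f7 to 1.52 log2 units, and moved the G1 minus S phase difference to 1.72; posterior mean TPM gave 2 S phase genes below. With a pseudocount of 0.1 the class differences were 1.88, 2.48 and 0.61, and 4 members and 418 genes were higher in the alignment-free table; with no minimum 518 genes were, and with a minimum of 100, 0 members and 84 genes, with 52 lower.

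Leaving out 1 library gave 5 to 21 members below, 2 to 5 G1, 1 to 7 S phase and 2 to 9 mitosis genes, 1546 to 3232 of all genes below, and 91 to 128 genes lower in the alignment-free table. The cause of the losses was not tested. No paired analysis was possible because the series has 1 group, so that no samples pair across groups; the paired values are the 2 quantifications of each library. Depth limits the low genes, which except in the setting with no minimum were not tested under a mean of 10 counts.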
